A study of Homo sapiens with 12 samples.

Results

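The 48 genes described here act in DNA damage signalling and in the repair of broken, cross-linked or mismatched DNA. They were taken by name from a table of 60671 genes, in which each of the 48 occurred once, and all 48 reached the mean of 1 FPKM (fragments per kilobase of gene, scaled to the size of the library) that was needed to enter the tests, together with 11591 genes in all. The libraries came from cells labelled Jurkat, a line derived from a T cell acute lymphoblastic leukemia, in 4 groups of 3. In NC+DMSO and NC+VCR the labels give the genotype as WT, and the study's methods describe control cells as carrying a GFP vector. In PTPN21+DMSO and PTPN21+VCR the cells overexpressed PTPN21, a protein tyrosine phosphatase, from a FLAG-tagged construct driven by the viral SFFV promoter. Cells of both genotypes received vincristine (VCR), a drug that blocks the assembly of microtubules, or its solvent DMSO, for 48 h. The VCR dose of these libraries and whether the lines were clones or pools are not given in the sources used here. The methods speak of replicates in each group and of repeated independent experiments, without saying whether the libraries of a group came from separate cultures. The p-values therefore measure the spread between these libraries, which may be technical.

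A double-strand break is first sensed by the MRE11-RAD50-NBN complex, and the kinases ATM and ATR pass the signal on to CHEK2 and CHEK1. Homologous recombination then repairs the break from the sister chromatid, chiefly in S and G2 phase, whereas end joining works throughout the cell cycle. Many genes of these pathways are transcribed most strongly as cells enter S phase, and VCR stops dividing cells in mitosis.

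The label of the cells was compared with marker genes, and the data went against it. Of 12 T lineage markers, only CD3D (61.8 to 139.7 FPKM over the 12 libraries) and PTPRC (8.07 to 33.1 FPKM) reached a mean FPKM of 1. CD247, CD5, CD28 and LCK were listed at 0 in all 12 libraries, and CD3E was listed at 0 in 9. Several markers of other lineages were high, among them the epithelial keratins KRT8 (236 to 1186 FPKM) and KRT18 (91.9 to 436.5 FPKM), EPCAM (58.3 to 122.7 FPKM), and the globin gene HBA1 (49.4 to 190.1 FPKM). Of the B lineage markers, 0 of 5 reached a mean FPKM of 1, against 2 of 4 myeloid and 3 of 4 epithelial markers. The cells are therefore called here by their labels only. The mean level of HBA1 was 85.4 FPKM in NC+DMSO, 153.6 FPKM in PTPN21+DMSO, 54.2 FPKM in NC+VCR and 69.8 FPKM in PTPN21+VCR. The 4 epithelial markers summed to 388.4 to 589 FPKM in NC+DMSO, 510.2 to 579.4 FPKM in PTPN21+DMSO, 1153 to 1359 FPKM in NC+VCR and 1203 to 1676 FPKM in PTPN21+VCR. These markers moved with the treatment, and HBA1 was also higher with the PTPN21 construct in DMSO. Both treatment and construct are compared below, and the part of the markers in those results was not tested.

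PTPN21 itself was at 0.0212 to 0.0934 FPKM in NC+DMSO, 7.93 to 10.5 FPKM in PTPN21+DMSO, 0.16 to 0.569 FPKM in NC+VCR and 4.34 to 6.53 FPKM in PTPN21+VCR, in the order the labels give. The depth of the libraries, estimated in relative terms from the steps in which low FPKM values fall, was 1 to 1.25 in the 6 NC libraries and 1.43 to 1.67 in the 6 PTPN21 libraries, so that depth and construct cannot be told apart. The share of mitochondrially encoded mRNA in all FPKM was 7.96% to 10.1% with DMSO and 4.63% to 5.82% with VCR.

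The level of the 48 genes spanned from a mean of 1.006 FPKM over the 12 libraries for BRCA2, the loader of the recombinase onto DNA, to 182.8 FPKM for XRCC6, which encodes the Ku70 subunit that binds DNA ends. Next below XRCC6 were XRCC5 (126.8 FPKM), the Ku80 subunit, PARP1 (112.7 FPKM), which senses single-strand breaks, and RAD51C (96.0 FPKM), a paralog of the recombinase. At the low end were also BARD1 (1.24 FPKM), the partner of BRCA1, BRIP1 (1.65 FPKM), a helicase bound by BRCA1, and FANCE (1.66 FPKM), a member of the Fanconi anemia core complex. None of the 48 was listed at 0 in any library. Their summed level was 0.226% to 0.291% of all FPKM in NC+DMSO, 0.19% to 0.215% in PTPN21+DMSO, 0.173% to 0.189% in NC+VCR and 0.162% to 0.187% in PTPN21+VCR, so that NC+DMSO lay above all the other libraries.

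Some of these levels cannot be assigned to 1 gene with certainty, because the sources used here do not state whether strand was used in counting. In GENCODE release 29, 76.7% of the exonic bases of XRCC3 also lie in exons of KLC1 on the opposite strand. KLC1, a motor protein light chain, was at 9.49 to 24.3 FPKM in NC+DMSO and 9.29 to 44.4 FPKM in NC+VCR, well above XRCC3, and its log2 fold change under VCR was 0.43 in NC and 0.41 in PTPN21 cells (limma adjusted p = 0.461 and 0.519). ATRIP shares 27.9% of its exonic bases with TREX1 on the same strand, and TREX1 was at most 0.281 FPKM in any library. FANCA shares 23.6% with ZNF276 and RAD54L shares 25.1% with LRRC41, both on the opposite strand. LRRC41 was itself lower in NC+VCR (log2 fold change -0.66, limma adjusted p = 0.0411), the direction of RAD54L, and ZNF276 was not called (-0.28). Also on the opposite strand, TP53BP1 shares 28.7% with TUBGCP4 (-0.46, not called) and FANCL shares 18.7% with VRK2 (0.02, not called, at a mean of 22.5 FPKM). Smaller overlaps on the opposite strand involve genes of far higher level. RAD9A (mean 4.11 FPKM) shares 5.47% with PPP1CA (mean 31.2 FPKM), and RAD1 (mean 13.1 FPKM) shares 7.12% with BRIX1 (mean 176.1 FPKM). RAD50 shares 79.7% and RAD54B shares 59.1% of their exonic bases with another annotated gene on their own strand. PMS2, CHEK2 and FANCD2 have pseudogene copies elsewhere in the genome, so their reads may have been divided.

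Promoters were compared because many genes that are induced for S phase carry E2F sites near their start. RefSeq promoter sequences (GRCh38.p14, 250 bases before to 50 after the start) were at hand for 41 of the 48 genes. None was at hand for FANCI, HUS1, NBN, PRKDC, RAD54B, WRN and XRCC5. Only 1 promoter was kept per gene, so other starts of a gene were not searched. The E2F letters TTTCCCGC, TTTCGCGC, TTTGCCGC or TTTGGCGC, on either strand, occurred in 10 of the 41 (24.4%), in 3.33% of all 27305 promoters and in 5.87% of the 8097 promoters of genes tested. The CCAAT box occurred in 21 of the 41 (51.2%), in 35.7% of all promoters and in 37.9% of those of genes tested, and the cell cycle element TTTGAA in 5 of the 41 (12.2%), which is below its share of all promoters (15.4%) and above that of genes tested (9.57%). No motif is contained in another. The 4 promoters below show an E2F match close to the start, in capitals. Those of CLSPN, XRCC2 and EXO1 belong to genes that were lower in NC+VCR, and that of FANCD2 belongs to a gene that was not called. Close matches also lay in the promoters of MSH6 and TOPBP1, which are not shown and were not called in NC+VCR. Relative to the start these lay at 4 (MSH6) and -7 (TOPBP1), against 22 for XRCC2.
CLSPN, a mediator between ATR and CHEK1, minus strand, chr1:35769929-35770228:
CLSPN: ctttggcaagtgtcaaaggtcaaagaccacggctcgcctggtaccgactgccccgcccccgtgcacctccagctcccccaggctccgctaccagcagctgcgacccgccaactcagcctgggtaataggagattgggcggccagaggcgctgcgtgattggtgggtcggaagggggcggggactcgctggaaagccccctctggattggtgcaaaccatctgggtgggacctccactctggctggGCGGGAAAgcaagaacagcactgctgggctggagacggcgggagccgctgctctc
XRCC2, a recombinase paralog, minus strand, chr7:152676092-152676391:
XRCC2: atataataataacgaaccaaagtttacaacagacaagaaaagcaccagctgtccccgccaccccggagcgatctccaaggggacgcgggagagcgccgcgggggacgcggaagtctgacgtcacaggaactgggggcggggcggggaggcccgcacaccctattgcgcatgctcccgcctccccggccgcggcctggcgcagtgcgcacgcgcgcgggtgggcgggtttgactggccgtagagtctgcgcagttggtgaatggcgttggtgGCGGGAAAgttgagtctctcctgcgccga
EXO1, an exonuclease that resects DNA ends, plus strand, chr1:241847954-241848253:
EXO1: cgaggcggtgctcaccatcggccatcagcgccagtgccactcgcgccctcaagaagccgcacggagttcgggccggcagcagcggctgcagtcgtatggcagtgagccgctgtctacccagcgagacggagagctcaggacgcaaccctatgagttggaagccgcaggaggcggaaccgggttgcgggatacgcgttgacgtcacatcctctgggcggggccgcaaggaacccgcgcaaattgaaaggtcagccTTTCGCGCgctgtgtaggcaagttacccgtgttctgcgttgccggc
FANCD2, which is ubiquitinated at cross-links, plus strand, chr3:10026187-10026486:
FANCD2: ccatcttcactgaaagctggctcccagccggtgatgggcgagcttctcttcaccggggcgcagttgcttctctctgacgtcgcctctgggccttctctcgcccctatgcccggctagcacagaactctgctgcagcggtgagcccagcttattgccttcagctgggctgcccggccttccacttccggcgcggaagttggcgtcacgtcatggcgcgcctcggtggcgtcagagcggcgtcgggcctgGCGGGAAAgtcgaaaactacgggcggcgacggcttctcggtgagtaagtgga
An E2F match was present in 6 of 20 promoters of genes lower in NC+VCR (30%) and in 4 of 21 promoters of the other members (19%). For members called lower with VCR in both NC and PTPN21 cells it was present in 1 of 7 (14.3%). A match in these windows is a description of the letters and not of a bound site.

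With VCR in control cells, members of every role group were lower. Against NC+DMSO, 23 of the 48 genes passed lower in NC+VCR and 0 passed higher (limma, adjusted p under 0.05), with 31 of 48 (64.6%) at an unadjusted p under 0.05, against 46.4% of all genes tested. Over all genes tested, 28.3% passed lower and 7.91% passed higher, while 47.9% of the 48 passed lower. The median log2 fold change was -0.63 over the 48 genes and -0.36 over all genes tested, so most genes of these cells moved in the same direction on this scale. In bulk RNA, fewer cells of a type and less RNA per cell cannot be told apart.

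The count depended on how the libraries were scaled. FPKM sets each library to its own total, and when libraries were instead scaled by the median of ratios over genes, 8 members were lower and 2 higher of 47 tested, and the median of all genes moved from -0.36 to -0.04. The 8 were ATRIP, BARD1, CLSPN, FANCA, FANCB, NBN, PRKDC and XRCC3, all among the 23, and the other 15 calls were lost. The 2 higher were PARP2 (log2 fold change 0.66) and XRCC6 (0.63). Of all called genes, 21.9% were higher as deposited and 56.1% under that scaling. Relative to the median of all genes, the median of the 48 was lower by a similar amount under each scaling, with differences of -0.27 as deposited, -0.27 with TPM scaling and -0.25 with median ratio scaling.

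**Figure D1:**
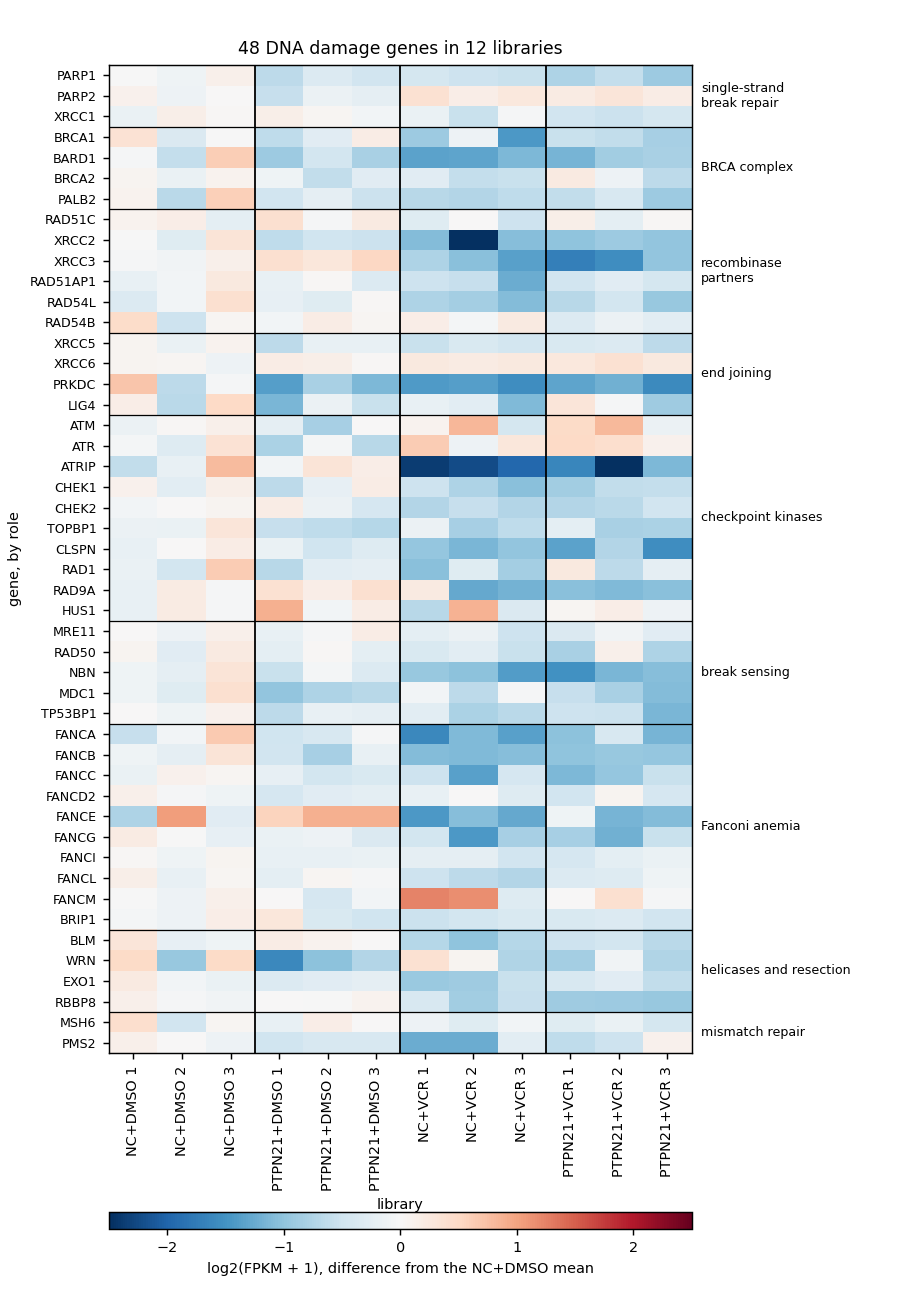
Each row is 1 of the 48 genes, grouped by role, and each column 1 of the 12 libraries; color gives log2(FPKM + 1) minus the NC+DMSO mean, with the scale ending at 2.5 either way. The NC+VCR and PTPN21+VCR columns are mostly blue (lower), and XRCC2 in NC+VCR replicate 2 lies beyond the end of the scale.

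Among the checkpoint genes, ATRIP, the partner that brings the kinase ATR to single-stranded DNA, had the lowest log2 fold change of the 48 in NC on the log2(FPKM + 1) scale. As a ratio of mean FPKM, ATRIP was at 15.9% of its NC+DMSO level and FANCE, a low gene, at 6.75%. Its FPKM was 10.5, 14.5 and 29.4 in NC+DMSO and 2.40, 2.73 and 3.50 in NC+VCR. In PTPN21+DMSO it was 15.8, 20.9 and 18.7, and in PTPN21+VCR 4.69, 1.46 and 7.04. All 6 VCR libraries lay below all 6 DMSO libraries. ATRIP fell by 2.19 on the log2 scale in NC cells (standard error 0.411, limma adjusted p = 0.00184). The PTPN21 cells gave -2.003 (limma adjusted p = 0.0037), and both values passed in each of 20 alternatives. ATR itself was not called in NC (log2 fold change 0.27), and its FPKM in PTPN21 cells was 1.18, 2.63 and 1.32 with DMSO and 4.27, 4.05 and 3.02 with VCR. Those ranges did not overlap, and ATR rose there by 0.85 on the log2 scale (limma adjusted p = 0.0404). ATR was expressed at a low level, and that call was lost in 6 of the 12 fits that left out 1 library (NC+DMSO replicate 1, PTPN21+DMSO replicate 1 or 3, or any of the PTPN21+VCR replicates), with values of 0.71 to 0.97 and adjusted p of 0.0515 to 0.136.

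CLSPN fell in both kinds of cells, with log2 fold changes of -1.03 (NC) and -0.89 (PTPN21). Its 3 libraries spanned 25.1 to 32.8 FPKM in NC+DMSO and 12.4 to 14.1 FPKM in NC+VCR, and 20.2 to 25.4 FPKM in PTPN21+DMSO and 9.09 to 16.9 FPKM in PTPN21+VCR. The kinase CHEK2 fell by 0.68 on the log2 scale in NC and by 0.50 in PTPN21 cells. The kinase CHEK1 fell by 0.78 in NC, a call lost without NC+DMSO replicate 1 or 3 or NC+VCR replicate 3 (-0.72 to -0.64), and its value in PTPN21 cells was -0.47 (limma adjusted p = 0.136). RAD9A, a subunit of the sliding clamp that activates ATR, was at 4.29, 5.93 and 4.91 FPKM in NC+DMSO and at 6.04, 1.47 and 1.63 FPKM in NC+VCR. The first NC+VCR library was above all those with DMSO, and the NC difference of -0.75 was not called (limma adjusted p = 0.0974). In PTPN21 cells RAD9A was at 6.77, 5.76 and 6.92 FPKM with DMSO and at 1.89, 1.79 and 1.93 FPKM with VCR. It fell there by 1.38 on the log2 scale (limma adjusted p = 0.00902), and this call held in all 12 fits that left out 1 library. The limit from the overlap of RAD9A with PPP1CA is given above. The other clamp subunits RAD1 and HUS1, the clamp's partner TOPBP1, and ATM were not called in either comparison.

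Of the recombination genes, XRCC2 and XRCC3, paralogs that assist the recombinase filament, differed most. XRCC2 was at 21.4, 17.4 and 27.3 FPKM in NC+DMSO and at 9.69, 0.25 and 9.89 FPKM in NC+VCR. The second NC+VCR library stood far below the others, yet all 3 lay below NC+DMSO. XRCC2 fell by 2.11 on the log2 scale (standard error 0.618, limma adjusted p = 0.02), by 1.07 without NC+VCR replicate 2, and lost the call without NC+DMSO replicate 3 (-1.95, limma adjusted p = 0.0644). In PTPN21 cells it was at 13.6, 15.01 and 14.7 FPKM with DMSO and at 10.3, 11.02 and 10.5 FPKM with VCR, a difference of -0.41 on the log2 scale that was not called (limma adjusted p = 0.659).

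XRCC3 was at 4.79, 4.58 and 5.49 FPKM in NC+DMSO and at 2.47, 1.89 and 1.33 FPKM in NC+VCR. In PTPN21 cells it was at 6.82, 6.20 and 7.49 FPKM with DMSO and at 0.827, 1.03 and 2.02 FPKM with VCR. All VCR libraries were below all DMSO libraries, and XRCC3 fell by 1.06 on the log2 scale in NC (limma adjusted p = 0.00479) and by 1.81 in PTPN21 cells (limma adjusted p = 0.000197), with the limit from its overlap with KLC1 given above. RAD51AP1, which binds the recombinase, and the motor protein RAD54L fell in NC (-0.78 and -0.90), and RAD54B and RAD51C were not called. In the BRCA group BARD1 fell in NC (-1.26, limma adjusted p = 0.00531), from 1.28 to 4.26 FPKM down to 0.367 to 0.584 FPKM, whereas BRCA1 (-0.83, limma adjusted p = 0.0565), BRCA2 and PALB2, which joins the pair, were not called.

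The end joining kinase PRKDC, the catalytic subunit that the Ku proteins bring to a DNA end, was at 93.8, 36.2 and 57.0 FPKM in NC+DMSO and at 21.0, 21.6 and 19.2 FPKM in NC+VCR. The NC+DMSO libraries differed among themselves by more than the VCR libraries did, but the groups did not overlap. PRKDC fell by 1.45 on the log2 scale (standard error 0.274, limma adjusted p = 0.0019) and passed in all 20 alternatives. In PTPN21 cells it was at 21.7, 32.5 and 26.2 FPKM with DMSO and at 22.8, 24.6 and 18.4 FPKM with VCR, where the groups overlapped and the value of -0.27 was not called (limma adjusted p = 0.503). XRCC5 fell by 0.47 in NC, a call lost without NC+DMSO replicate 1 or 3 or NC+VCR replicate 1 or 3 (-0.47 to -0.42, limma adjusted p 0.055 to 0.0773). The ligase gene LIG4 was not called.

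Of the 10 Fanconi anemia genes, which act on cross-linked DNA, 6 fell in NC and 1 in PTPN21 cells, beside 28.3% and 19.3% of all genes tested. Under median ratio scaling FANCA and FANCB were still called in NC, and FANCE in PTPN21 cells. FANCA, a core complex subunit, was at 5.84, 8.67 and 14.9 FPKM in NC+DMSO and at 2.35, 3.76 and 2.98 FPKM in NC+VCR. It fell without overlap by 1.35 on the log2 scale (limma adjusted p = 0.00568), and in PTPN21 cells, at 6.16, 6.72 and 8.97 FPKM with DMSO and 4.01, 6.71 and 3.55 FPKM with VCR, the value was -0.55 (limma adjusted p = 0.208). FANCE was at 0.595, 4.61 and 1.24 FPKM in NC+DMSO and at 0.0105, 0.301 and 0.123 FPKM in NC+VCR. It was at 2.99, 4.02 and 4.06 FPKM in PTPN21+DMSO and at 1.51, 0.218 and 0.273 FPKM in PTPN21+VCR. FANCE was lower in every VCR library of a genotype than in that genotype's DMSO libraries, with differences of -1.25 in NC (limma adjusted p = 0.0335) and -1.57 in PTPN21 cells (limma adjusted p = 0.0145), at levels where few fragments were counted. The NC call was lost without NC+DMSO replicate 2 or without any of the NC+VCR replicates (-1.35 to -0.73, limma adjusted p 0.0523 to 0.111), and the PTPN21 call without PTPN21+VCR replicate 2 or 3 (-1.42 to -1.38, limma adjusted p 0.0543 to 0.0594).

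FANCB, FANCG and FANCC, further subunits of the core complex, fell in NC by 1.09, 0.91 and 0.76 on the log2 scale, and its ubiquitin ligase FANCL fell by 0.64. The substrates of that ligase, FANCD2 (-0.16) and FANCI (-0.31, limma adjusted p = 0.0606), and the helicases FANCM (0.69) and BRIP1 (-0.46) were not called. The FANCG call was lost without NC+DMSO replicate 1 or NC+VCR replicate 2 (-0.81 to -0.64). The FANCC call was lost in 7 of 12 fits (NC+DMSO replicate 1, 2 or 3, PTPN21+DMSO replicate 2 or 3, NC+VCR replicate 2 or PTPN21+VCR replicate 2), with values of -0.85 to -0.47.

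Of the genes that sense breaks, only NBN was called in a VCR comparison. It fell in both kinds of cells (-1.12 and -0.93), from 14.4 to 21.8 FPKM to 5.86 to 8.34 FPKM in NC, and from 11.4 to 16.6 FPKM to 5.36 to 7.70 FPKM in PTPN21 cells. Its partners MRE11 (-0.30 and -0.23) and RAD50 (-0.40 and -0.33), and the chromatin-bound mediators MDC1 and TP53BP1, were not called. Of the resection and helicase genes, RBBP8, which encodes CtIP and starts resection, fell by 0.61 in NC and by 0.94 in PTPN21 cells, where all 3 libraries were at 28.6 to 29.6 FPKM with VCR against 55.4 to 59.3 FPKM with DMSO. The helicase BLM fell in both as well (-0.81 and -0.64), EXO1 fell in NC (-0.79), and the helicase WRN was not called.

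PARP1 was also an RT-qPCR target of the study. The study named it among the apoptosis-related genes that its RNA-seq showed as decreased with PTPN21 under VCR. By RT-qPCR the study also saw a decrease, which was not statistically significant. In the libraries PARP1 was at 149, 138 and 164 FPKM in NC+DMSO and at 110.3, 105 and 101 FPKM in NC+VCR. It fell without overlap by 0.50 on the log2 scale (standard error 0.119, limma adjusted p = 0.00668), and under median ratio scaling the value was -0.11 and was not called (limma adjusted p = 0.462). In PTPN21 cells it was at 94.9, 118 and 107 FPKM with DMSO and at 87.7, 98.2 and 79.8 FPKM with VCR, with overlap, and the value of -0.26 was not called (limma adjusted p = 0.119). Its relative PARP2 was at 51.9, 43.7 and 48.3 FPKM in NC+DMSO and at 62.7, 53.8 and 57.9 FPKM in NC+VCR (log2 fold change 0.27, limma adjusted p = 0.134). In PTPN21 cells PARP2 was at 31.6, 43.0 and 41.1 FPKM with DMSO and at 55.1, 59.2 and 54.8 FPKM with VCR. It rose there by 0.55 (limma adjusted p = 0.01) and passed in all 20 alternatives. XRCC1, the scaffold of single-strand break repair, fell in PTPN21 cells by 0.53, a call lost without PTPN21+DMSO replicate 1 or 2 or PTPN21+VCR replicate 1 or 2 (-0.53 to -0.48). Of the mismatch repair genes, PMS2 fell in NC by 0.92, a call lost without NC+DMSO replicate 1 or 2 or NC+VCR replicate 1 or 2 (-0.91 to -0.75), and MSH6 was not called.

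**Figure D2:**
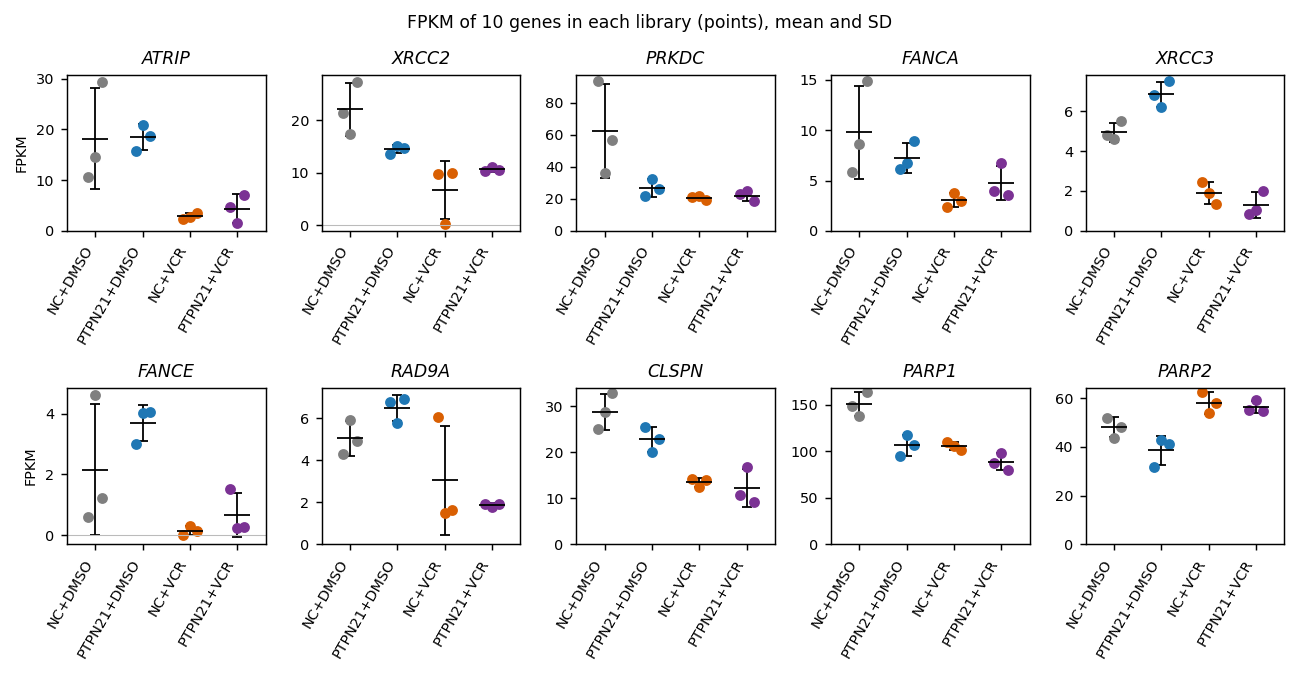
FPKM of 10 genes (linear axes from 0) in the 4 groups, with 1 point per library, the mean as a horizontal line and the SD as bars (n = 3). ATRIP, XRCC3 and CLSPN lie lower with VCR in both kinds of cells, PARP2 is highest with VCR, and the low XRCC2 point in NC+VCR is replicate 2.

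With the PTPN21 construct, as deposited, 12 of the 48 genes were called under VCR, against 23 in NC, and under median ratio scaling 10 were called in each. Against PTPN21+DMSO, 10 of 48 passed lower in PTPN21+VCR and 2 passed higher (limma, adjusted p under 0.05), while over all genes tested 19.3% passed lower and 9.22% higher. The share of the 48 that passed lower, 20.8%, was close to that background. The median was -0.26 over the 48 and -0.17 over all genes tested, and the members' median relative to all genes was -0.10 under each of the 3 scalings. Under median ratio scaling 7 of 47 passed lower (14.9%) and 3 higher (6.38%), XRCC6 being added to ATR and PARP2. Over all genes tested, 12.4% passed lower and 13.8% higher under that scaling. Of all called genes 52.5% were higher, against 32.3% as deposited. The call of CHEK2 in these cells was lost without PTPN21+DMSO replicate 1 or 2 or PTPN21+VCR replicate 1 or 2 (-0.51 to -0.34).

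The 8 genes called lower in both VCR comparisons were XRCC3, ATRIP, CHEK2, CLSPN, NBN, FANCE, BLM and RBBP8. They are 34.8% of the 23 lower in NC and 80% of the 10 lower in PTPN21 cells. Under median ratio scaling 4 were called lower in both, ATRIP, CLSPN, NBN and XRCC3. Over all genes tested, as deposited, the same shares were 48.7% and 71.3%. The 2 comparisons share no library. Across the 48 genes, the 2 sets of log2 fold changes had a Pearson correlation of 0.654, and across all genes tested 0.69. The points share their libraries and genes are not independent replicates. The value was less negative or more positive in PTPN21 cells for 38 of 48 genes (79.2%), against 63.4% of all genes tested.

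**Figure D3:**
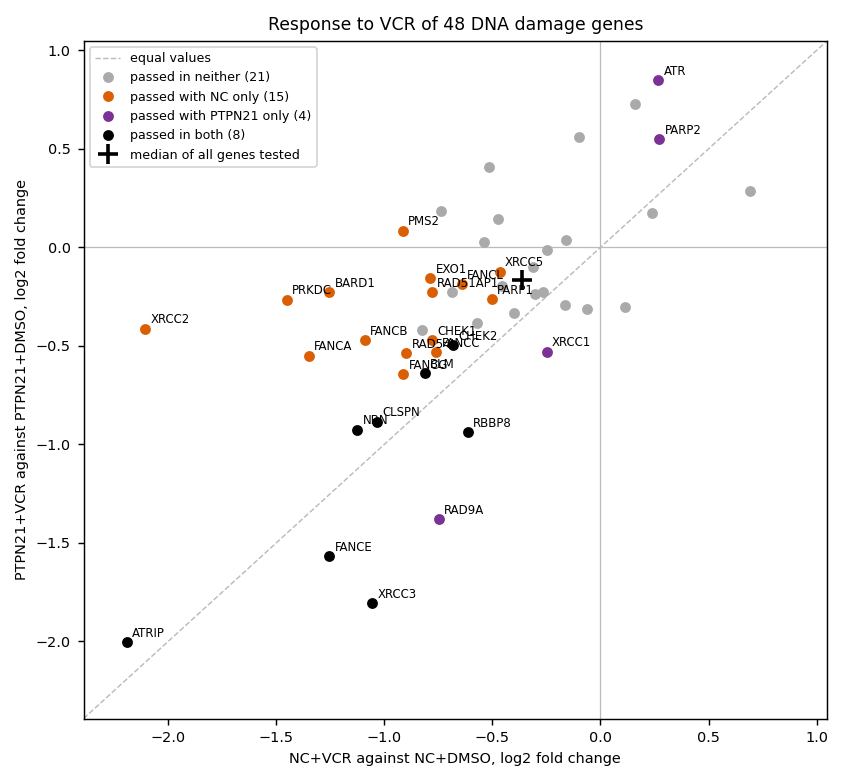
Log2 fold change with VCR in NC cells (x axis) and in PTPN21 cells (y axis) for the 48 genes, colored by the comparison in which they passed, with the median of all genes tested as a cross and the line of equal values dashed. Most points lie above the line, and ATRIP, XRCC3 and FANCE lie lowest on the y axis.

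Whether the response to VCR differed between the genotypes was tested as the interaction. None of the 48 genes passed (limma, 0 of 48), against 0.0259% higher and 0.104% lower of all genes tested, and 5 of 48 (10.4%) had an unadjusted p under 0.05, against 14% of all genes tested. These were PRKDC (interaction 1.18 on the log2 scale, limma adjusted p = 0.228), EXO1 (0.63, limma adjusted p = 0.234), BARD1 (1.03), PMS2 (1.00) and XRCC3 (-0.75). The 95% intervals, before any adjustment, were 0.34 to 2.03 for PRKDC and 0.17 to 1.09 for EXO1. The median interaction was 0.25 over the 48 genes and 0.17 over all genes tested, and under median ratio scaling 0.06 and 0.01. Of all genes called for the interaction, 20% were higher as deposited (3 higher, 12 lower). With TPM scaling 42.9% were higher (12 higher, 16 lower), and with median ratio scaling 18.8% (3 higher, 13 lower). A gene called in NC and not in PTPN21 cells was thus not shown to differ between them.

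Without VCR, PTPN21 overexpression was set against the control vector in PTPN21+DMSO and NC+DMSO. Here 2 of 48 genes passed lower and 0 higher (limma, adjusted p under 0.05), against 3.69% lower and 2.65% higher of all genes tested. Under median ratio scaling 0 of 47 passed, against 1.33% lower and 3.7% higher of all genes tested, and the members' median moved from -0.26 to -0.07. The share of higher genes among all called went from 41.8% to 73.6% under that scaling, and to 20.5% with TPM scaling. At an unadjusted p under 0.05 there were 9 of 48 (18.8%), against 25.6% of all genes tested. PRKDC, with the values given above, was lower in PTPN21+DMSO without overlap (log2 fold change -1.10, limma adjusted p = 0.038), as was PARP1 (-0.49, limma adjusted p = 0.0357). The PRKDC call was lost in 7 of 12 fits (NC+DMSO replicate 1 or 3, PTPN21+DMSO replicate 1 or 3, or any PTPN21+VCR replicate), with values of -1.11 to -0.76, and the PARP1 call in 5 (NC+DMSO replicate 1 or 3, PTPN21+DMSO replicate 1 or 3, or PTPN21+VCR replicate 1), with values of -0.50 to -0.41. MDC1 was at 20.6 to 33.8 FPKM in NC+DMSO and 12.3 to 15.5 FPKM in PTPN21+DMSO, and just missed the threshold (-0.82, limma adjusted p = 0.0512). Without NC+DMSO replicate 2 the count of called members went from 2 to 6.

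Under VCR, PTPN21+VCR and NC+VCR did not differ in any of the 48 genes at the threshold (limma, 0 of 48), against 1% higher and 0.82% lower of all genes tested. At an unadjusted p under 0.05 there were 4 (8.33%, against 17.1% of all genes tested), namely MDC1 (-0.58), FANCL (0.38), EXO1 (0.35) and RBBP8 (-0.30), with a lowest limma adjusted p of 0.206. The 95% interval was -1.07 to -0.09 for MDC1 and -0.51 to 0.00 for PARP1 (-0.25, limma adjusted p = 0.302). The median was 0.06 over the 48 and 0.03 over all genes tested. The groups did not overlap for 8 of the 48 (16.7%), against 22.5% of all genes tested. PARP1 was among the 8, with PTPN21+VCR (79.8 to 98.2 FPKM) below NC+VCR (101.2 to 110.3 FPKM). Of all called genes 55% were higher as deposited and 44.6% with median ratio scaling. Without NC+VCR replicate 3, 1 of the 48 passed.

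**Figure D4:**
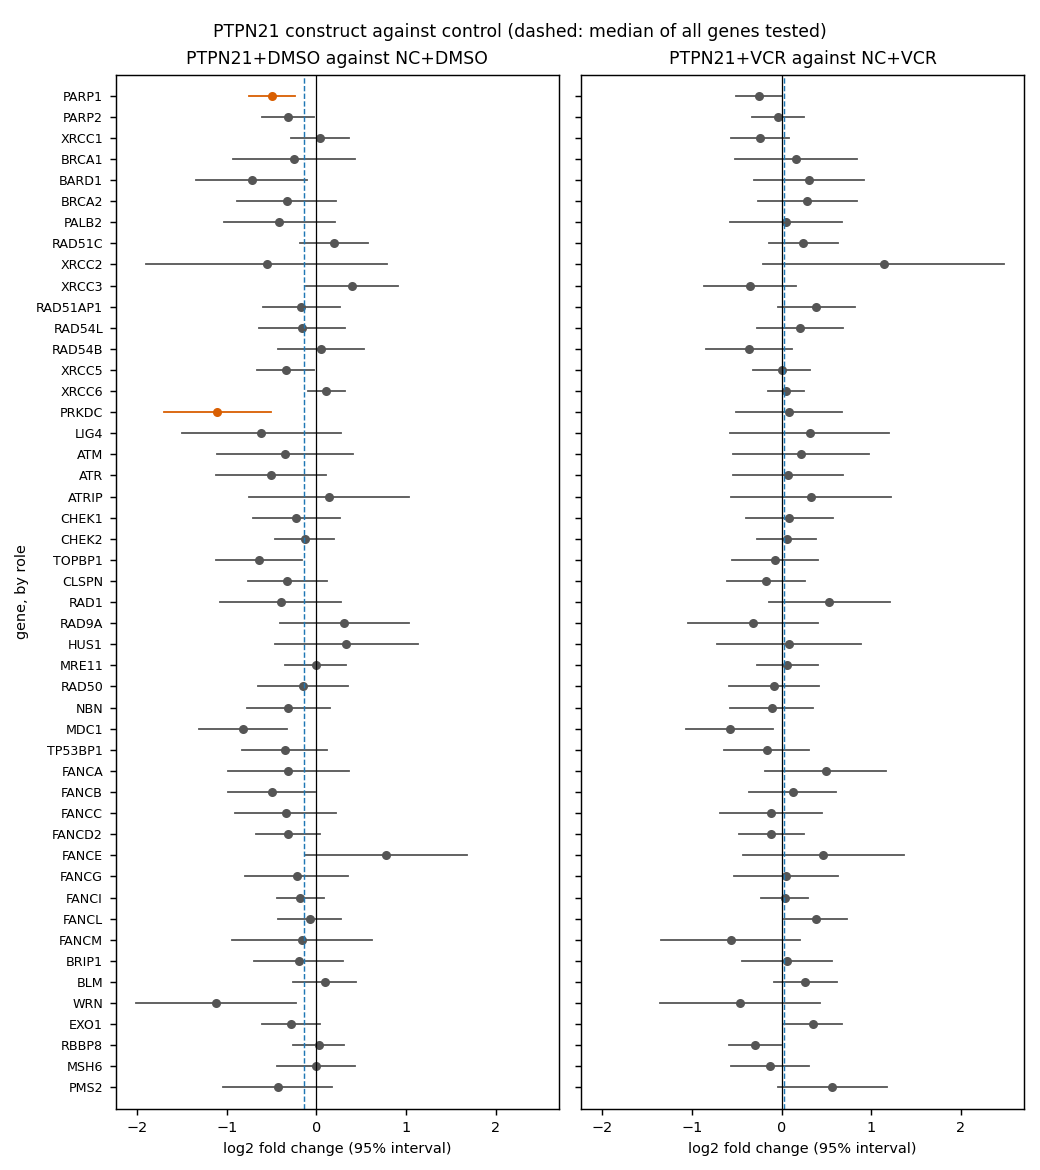
Log2 fold change of PTPN21 against NC cells with DMSO (left) and with VCR (right) for the 48 genes by role; points are estimates, bars 95% intervals, orange marks an adjusted p under 0.05 and the dashed line is the median of all genes tested. PARP1 and PRKDC are marked on the left and no gene is marked on the right.

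Other genes of the repair pathways were examined as a list of 66, of which 62 were tested. In NC+VCR, 26 of the 62 passed lower and 2 higher, with a median of -0.57, beside 28.3% lower and 7.91% higher of all genes tested. In PTPN21+VCR 13 (21%) passed lower and 6 higher, with a median of -0.19, beside 19.3% lower and 9.22% higher of all genes, which is near that background. Under median ratio scaling the counts were 10 lower and 8 higher in NC (median -0.24), and 10 lower and 6 higher in PTPN21 cells (median -0.04). The largest falls in NC were those of SLX1A, a nuclease subunit with a near-identical copy SLX1B (-2.33), and H2AX, the histone that is phosphorylated at breaks (-1.67), and in PTPN21 cells those of H2AX (-1.55) and the nuclease-helicase DNA2 (-1.43). H2AX was at 60.6 to 76.4 FPKM in NC+DMSO and 15.6 to 30.4 FPKM in NC+VCR. EME1, a nuclease subunit, rose in both (0.63 and 1.11), RPA3, a subunit of the single-strand binding protein, rose in NC (0.53) and the helicase RECQL rose in PTPN21 cells (0.84). With DMSO, 4 of the 62 passed lower and 1 higher with PTPN21, beside 3.69% lower and 2.65% higher of all genes tested. They were led by WEE1, the kinase that restrains entry into mitosis (-0.97), BRCC3, a deubiquitinase (-0.89), and RMI2, a partner of BLM (1.24). Under median ratio scaling 0 of the 62 passed lower and 1 higher, so the calls of WEE1 and BRCC3 were lost. Over all genes tested, 1.33% passed lower and 3.7% higher under that scaling. With VCR, 0 of the 62 passed between the genotypes, against 1% higher and 0.82% lower of all genes tested. An unadjusted p under 0.05 was found for 12 (19.4%), near the 17.1% of all genes tested.

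Genes of the cell cycle moved with the same treatment. Of 20 S phase genes, 15 passed lower and 0 higher in NC+VCR (median -0.75), and 14 passed lower and 1 higher in PTPN21+VCR (median -0.64). Of 19 G2 and M phase genes tested, 7 passed higher and 5 lower in NC+VCR (median 0.10), and 9 higher and 1 lower in PTPN21+VCR (median 0.24). Under median ratio scaling the G2 and M phase counts in NC were 11 higher and 0 lower, and under TPM scaling 6 higher and 6 lower. In single libraries, the median difference of the 48 genes from the NC+DMSO mean was -0.64 to -0.51 in NC+VCR and -0.66 to -0.46 in PTPN21+VCR, that of the S phase genes was -0.82 to -0.74 and -1.01 to -0.80, and that of all genes was -0.39 to -0.32 and -0.38 to -0.31. The 48 genes thus lay between all genes and the S phase genes in each of the 6 VCR libraries, and the part of cell cycle composition in their values was not tested.

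**Figure D5:**
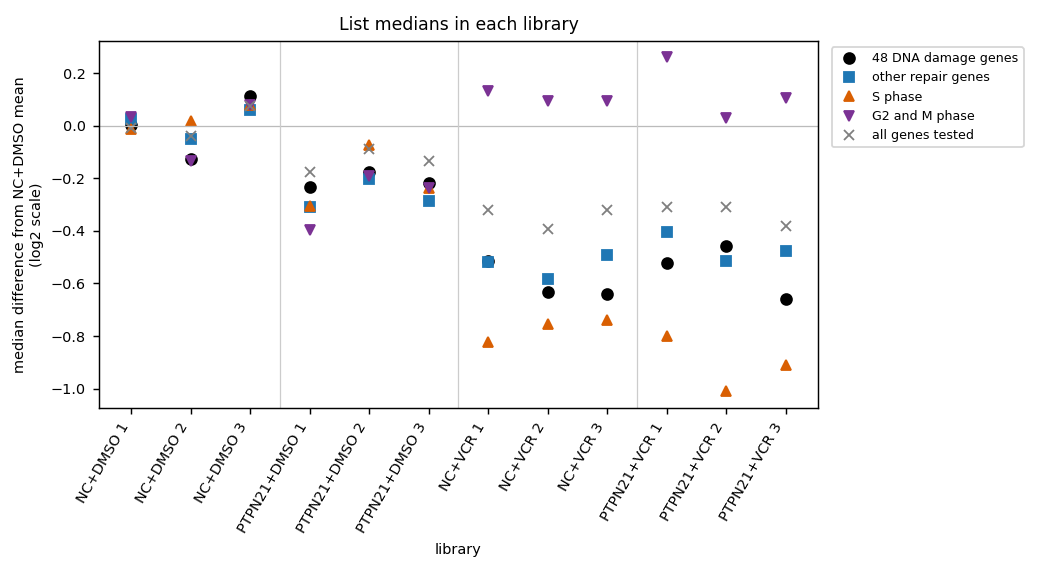
Median difference from the NC+DMSO mean (log2 scale, y axis) in each of the 12 libraries for the 48 genes, the other repair genes, S phase genes, G2 and M phase genes and all genes tested. In the VCR libraries the 48 genes lie between all genes and the S phase genes, and the G2 and M phase genes lie above 0.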

How the data were processed

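RNA of 12 libraries was analysed, 3 per group, with groups and replicates from the sample labels. The authors deposited a single FPKM table, which came from an outside provider by what the study's methods call digital gene expression tag profiling. The submitters' processing notes name fastp, Bowtie2 and the mouse build mm10, although the rows are human Ensembl genes, and the counting program and annotation are not given in the sources used here. Each value column carries the name of 1 sample.

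Deposited FPKM values were put on the scale log2(FPKM + 1), which understates changes of low genes. The 11591 genes averaging 1 FPKM or more were fitted with limma 3.58.1 (R 4.3.3), with an intensity trend and 1 mean per group, for 5 comparisons. Benjamini-Hochberg adjustment ran over all genes, with a threshold of 0.05, and the fit was tested on simulated data. With 3 libraries a group, the smallest exact permutation p is 0.1. The 48 genes and all lists were chosen with earlier results of these data known. Every library's value is given for the 4 largest rises and falls that passed in each comparison and for PARP1, and other genes by range or fold change. Of the other repair genes, the 2 largest rises and falls were named.

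The FPKM table gives no depth. Relative depth came from single-exon genes longer than 500 bases, for which 44.9% to 54.1% of low values lay near a whole step (within 0.1), and steps of 1 and 2 fragments could not be separated, so absolute depth is unknown. Positions and exon overlaps are from GENCODE release 29, matched by Ensembl identifier. The alternatives tried were TPM and median ratio scaling, a filter at 5 FPKM or none, a pseudocount of 0.1, no trend, 2 groups alone, a replicate block and leaving out each library. Other steps used pandas 2.3.3 and numpy 2.4.6 under Python 3.11.15, and matplotlib 3.10.9 for plots.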

Additional observations from a re-analysis of the deposited data

Results flagged for a closer look

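XRCC2 was the only one of the 48 genes whose libraries separated in opposite directions. The share of all genes tested that did so was not counted. Separation of the genotypes was common by itself, at 33.4% of all genes tested with DMSO and 22.5% with VCR. With DMSO all 3 PTPN21 libraries (13.6 to 15.01 FPKM) lay below all 3 NC libraries (17.4 to 27.3 FPKM), and with VCR all 3 PTPN21 libraries (10.3 to 11.02 FPKM) lay above all 3 NC libraries (0.25 to 9.89 FPKM). The test of the difference itself gave an interaction of 1.69 on the log2 scale (limma adjusted p = 0.399), which did not pass, and 0.66 without NC+VCR replicate 2 (limma adjusted p = 0.262). Groups of 3 libraries were not tested for outlying samples.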

How the results depend on the processing

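The count of called genes in NC+VCR against NC+DMSO was 23 as reported, 10 (2 higher, 8 lower) with median ratio scaling, and 17 to 27 in the other settings, with 18 to 24 when single libraries were left out. For PTPN21+VCR against PTPN21+DMSO, reported as 12, the settings gave 8 to 13 and leaving out a library gave 9 to 13. For PTPN21+DMSO against NC+DMSO, reported as 2, the count was 0 with median ratio scaling, with no filter, with no trend, in a fit of 2 groups alone and with a replicate block, and it was 0 to 6 when a library was left out, with 6 without NC+DMSO replicate 2 and 0 without NC+DMSO replicate 1 or 3, PTPN21+DMSO replicate 1 or 3 or PTPN21+VCR replicate 1. It was 1 without PTPN21+VCR replicate 2 or 3. The cause was not tested. For PTPN21+VCR against NC+VCR and for the interaction, reported as 0, all settings gave 0, and leaving out a library gave 0 to 1 (1 without NC+VCR replicate 3) and 0.

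With the replicate block the 5 counts were 23, 10, 0, 0 and 0. Same-numbered libraries showed no shared deviation, as the deviations of 18 such pairs correlated at -0.145 to 0.0583. These correlations cannot show whether the libraries were cultured or processed as pairs. Over single genes, 330 values under other settings held 281 on the same side of the threshold and none with a changed sign, and of 515 values without 1 library 460 stayed on the same side and none changed sign. Of the called genes, 16 of 23, 8 of 12 and 0 of 2 passed in every fit without 1 library in which they were tested. Genes at a few FPKM rest on few fragments, and the uncertain depth allows no interval.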
